A study of Homo sapiens with 22 samples.

Results

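The 36 zinc finger genes described here lie in the large ZNF cluster that runs over bands 19p13.11 and 19p12 of human chromosome 19, and were taken by name from a list; all 36 symbols matched 1 row each of a read count table with 48162 gene IDs. RNA was sequenced from HEK293, a human embryonic kidney cell line, in 12 libraries that make up 6 groups of 2 labelled biological replicates. Cells of 5 groups carried a dCas9 fusion. dCas9 is a Cas9 that binds DNA at a guide RNA's site without cutting it, VPR is a transcriptional activator built from viral and human activation domains, p300 is the histone acetyltransferase domain of EP300, p300 D1399Y is its catalytic mutant, and VPRP joins VPR with p300. The groups were dCas9-VPRP with the guide sgHBB, which targets the beta-globin gene HBB (VPRP sgHBB), dCas9-VPRP with a non-target guide (VPRP non-target), dCas9-VPR with sgHBB (VPR), dCas9-p300 with sgHBB (p300), dCas9-p300 D1399Y with sgHBB (D1399Y), and WT cells with no fusion. Cells of all groups were induced with doxycycline for 48 h and sorted on fluorescent reporters before poly(A) RNA was taken. The WT cells are labelled as untreated, but by the protocol they held a guide, whose target the labels do not give. Nor do the labels say whether a fusion line is 1 clone or a pool. Effects of a fusion and of its line cannot be told apart.

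Most genes of this cluster encode KRAB zinc finger proteins. Such a protein binds DNA through a row of zinc fingers and recruits the co-repressor TRIM28 through its KRAB domain, and TRIM28 in turn brings the histone methyltransferase SETDB1. Many of these proteins silence transposable elements: ZNF91 is known to repress SVA elements and ZNF93 to repress L1 elements. The cluster grew by repeated duplication in primates, so that its genes resemble each other closely. Reads from near-identical stretches can be lost or shared between copies, which makes the level of every member uncertain to that extent.

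The start regions show this resemblance in part. RefSeq promoter windows on build GRCh38.p14, which cover 250 bases before to 50 bases after the annotated start, were at hand for 28 of the 36 genes. Over the 378 pairs of these windows identity ranged from 48.9% to 91.0%, with a median of 76.5%. ZNF14 had the lowest median identity to the rest, 52.1%. Identity between unrelated windows was not measured. The windows of 4 genes with different behaviour in these libraries are printed 5′ to 3′ on the gene's strand, with every copy of the 8-letter string TCCAATCA in capitals. The string holds the CCAAT box, the motif bound by the factor NF-Y. ZNF681 lies at chr19:23758842-23759141 on the minus strand, ZNF93 at chr19:19900696-19900995, ZNF486 at chr19:20166964-20167263 and ZNF714 at chr19:21081953-21082252, the last 3 on the plus strand.
ZNF681: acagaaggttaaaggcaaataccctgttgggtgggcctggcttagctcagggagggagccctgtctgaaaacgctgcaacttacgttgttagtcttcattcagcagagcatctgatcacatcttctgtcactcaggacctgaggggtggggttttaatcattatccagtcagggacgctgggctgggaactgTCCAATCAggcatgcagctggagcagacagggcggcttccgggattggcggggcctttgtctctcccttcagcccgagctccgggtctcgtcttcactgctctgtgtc
ZNF93: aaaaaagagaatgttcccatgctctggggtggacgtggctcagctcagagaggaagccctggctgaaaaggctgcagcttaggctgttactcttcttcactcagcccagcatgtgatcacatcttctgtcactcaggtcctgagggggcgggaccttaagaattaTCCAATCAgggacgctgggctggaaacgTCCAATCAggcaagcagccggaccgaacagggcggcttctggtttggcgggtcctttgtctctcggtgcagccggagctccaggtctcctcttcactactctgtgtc
ZNF486: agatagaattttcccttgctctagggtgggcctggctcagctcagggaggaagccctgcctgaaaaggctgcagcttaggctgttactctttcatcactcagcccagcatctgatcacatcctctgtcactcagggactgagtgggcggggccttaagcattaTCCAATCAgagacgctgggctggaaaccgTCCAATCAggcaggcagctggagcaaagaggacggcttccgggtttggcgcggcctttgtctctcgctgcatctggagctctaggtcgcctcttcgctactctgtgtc
ZNF714: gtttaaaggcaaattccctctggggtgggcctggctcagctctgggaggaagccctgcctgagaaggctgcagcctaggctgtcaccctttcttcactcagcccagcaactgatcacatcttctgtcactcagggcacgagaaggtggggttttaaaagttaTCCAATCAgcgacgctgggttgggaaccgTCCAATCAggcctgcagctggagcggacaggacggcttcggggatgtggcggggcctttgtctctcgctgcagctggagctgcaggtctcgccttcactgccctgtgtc

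TCCAATCA, searched on both strands, stood in all 28 of these windows (100%), against 23 of 179 windows of other ZNF genes on chromosome 19 (12.8%), 16 of 190 windows of ZNF genes on other chromosomes (8.42%) and 542 of all 35116 RefSeq windows (1.54%). It stood on the gene's own strand in all 28, and 15 of the 28 had it at least 2 times. The copy nearest the start began 24 to 85 bases before it. A second string, CTGTCACT, which shares no base with the first string in these windows, stood in 25 of the 28 windows (89.3%), against 1.91% of all windows. Both strings were picked after reading the windows, so the shares are a description. The number of CpG pairs per window ran from 8 to 18 with a median of 10, against a median of 14 over all windows. It was 8 to 16 in the 8 windowed genes that fell in 3 groups, and 10 to 14 in the 5 genes not called against WT in any group, so the ranges overlapped.

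The libraries held 14894558 to 17479523 counted reads. Levels are given as CPM, counts scaled to 1000000 reads per library after TMM adjustment, a library size factor estimated from all genes. CPM is not corrected for gene length and is compared only within a gene. Changes are log2 fold changes from edgeR's quasi-likelihood fit over all 12 libraries, called at a Benjamini-Hochberg adjusted p under 0.05 over the 16694 genes with enough reads to test. Of the 36 cluster genes, 28 were tested and 8 were not (ZNF626, ZNF257, ZNF676, ZNF729, ZNF98, ZNF99, ZNF728 and ZNF730). Another 6 (ZNF208, ZNF682, ZNF43, ZNF90, ZNF486 and ZNF253) passed the filter only through the VPRP non-target libraries and so were bound to stand higher there. Changes of these 6 that involve VPRP non-target are given as values with no test, and counts over the other 22 stand beside those over the 28. HBB averaged 1560 CPM in VPRP sgHBB, 80.4 in VPR, 187 in p300 and 79.1 in D1399Y, and had no read in VPRP non-target or WT. The HEK293 markers NEFM, INA and PAX2 were at 1 CPM or more in every library. Of 12 matched markers of other cell types, 8, the blood gene PTPRC among them, stayed under 1 CPM in all 12 libraries. The fibroblast gene COL1A1 averaged 59.9 CPM in VPRP sgHBB, 39.1 in VPRP non-target, 21.5 in VPR and 35.2 in D1399Y, against 12.2 in WT, and its p300 libraries had 28.6 and 27.4. COL3A1, another fibroblast gene, had means of 1.91 to 4.95 over the groups, APOA1, a liver gene, reached 2.41 CPM in a VPRP sgHBB library against 0.0672 and 0.0647 in WT, and LYZ, a blood gene, reached 1.18 in a D1399Y library against 0 and 0 in WT. The part of these markers in the cluster's changes was not tested.

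The summed level of the 36 genes was 163 and 174 CPM in the VPRP sgHBB libraries, 247 and 248 in VPRP non-target, 184 and 219 in VPR, 164 and 152 in p300, and 141 and 154 in D1399Y, against 186 and 193 in WT. VPRP non-target was the highest group, and p300, D1399Y and VPRP sgHBB lay below both WT libraries. In bulk RNA, fewer cells with a transcript and less RNA per cell cannot be told apart.

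**Figure D1:**
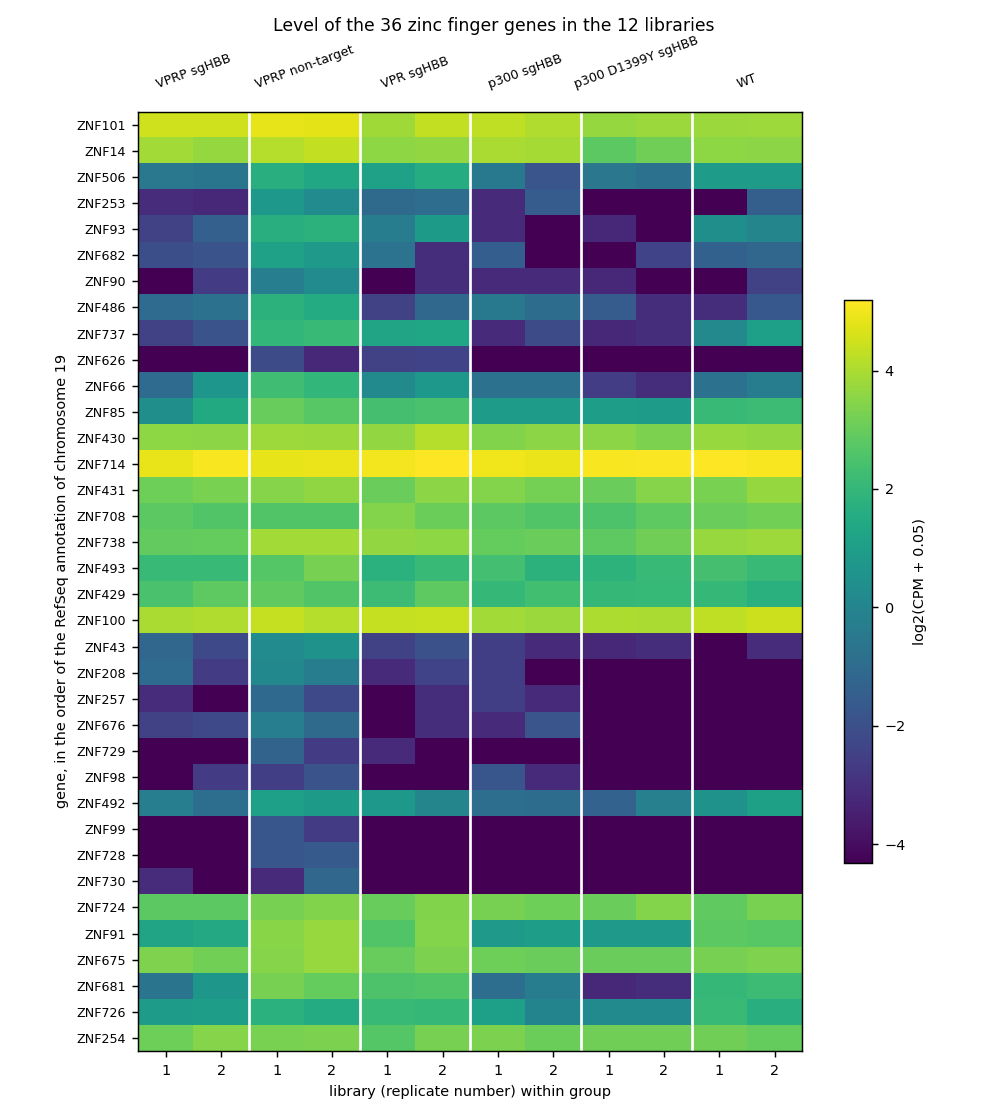
Level of each of the 36 genes (rows, in the order of the RefSeq annotation of chromosome 19) in each of the 12 libraries (columns, 2 per group), as log2(CPM + 0.05); colours are comparable along a row, not between genes. Dark cells mark genes with few or no reads: ZNF681, ZNF93 and ZNF737 darken in VPRP sgHBB, p300 and D1399Y, and the rows near ZNF43 and ZNF208 brighten in VPRP non-target.

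Part of the cluster stood lower in 3 of the 4 groups with the HBB guide. Against WT, 10 of the 28 genes fell in VPRP sgHBB, 10 fell in p300 and 12 fell in D1399Y. Over all genes tested, 28% fell in VPRP sgHBB, 21.6% in p300 and 14.5% in D1399Y. Falls of at least 2-fold were found for 7 genes in VPRP sgHBB, 8 in p300 and 9 in D1399Y, where the shares over all genes were 5.64%, 2.78% and 1.93%. All of these calls were among the 22 genes that pass the filter without VPRP non-target. The median log2 change of the 28 was -0.30 in VPRP sgHBB, -0.23 in p300 and -0.50 in D1399Y, against medians over all genes of 0.04, 0.03 and 0.00. The 3 comparisons share the WT libraries.

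The same 10 genes fell in all 3 groups: ZNF506, ZNF93, ZNF737, ZNF85, ZNF738, ZNF100, ZNF492, ZNF91, ZNF681 and ZNF726. How many of all genes tested fell in all 3 was not counted. Because the WT libraries are shared, some overlap arises from them alone, so the overlap is a description. D1399Y added ZNF14 and ZNF66. Few cluster genes rose: ZNF101, ZNF429 and ZNF208 in VPRP sgHBB (31.1% of all genes rose), ZNF101 and ZNF14 in p300 (24.5%), and 0 in D1399Y (15.7%). In D1399Y the count of 0 rises was also 0 at an unadjusted p under 0.05 and 0 in DESeq2. The p300 rises of ZNF101 (log2 change 0.38, SE 0.138, adjusted p = 0.0231) and ZNF14 (0.39, SE 0.143, adjusted p = 0.0252) were lost in DESeq2, which called 0 rises in p300, and when single p300 or WT libraries were left out (0.068 to 0.216 for ZNF101 and 0.0635 to 0.11 for ZNF14, except ZNF101 without p300 replicate 2). The rise of ZNF429 in VPRP sgHBB (0.80, adjusted p = 0.00396) was lost without VPRP sgHBB replicate 2 (0.0826) or WT replicate 2 (0.0625).

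ZNF681, a KRAB zinc finger gene, reached in D1399Y the lowest ratio to WT among the 28 genes where both groups had reads. It stood at 0.587 and 1.6 CPM in VPRP sgHBB, 9.54 and 7.59 in VPRP non-target, 5.7 and 6.09 in VPR, 0.49 and 0.766 in p300, and 0.0578 and 0.0692 in D1399Y, against 4.03 and 4.53 in WT. The libraries of VPRP sgHBB, p300 and D1399Y were all below WT with no overlap, and the D1399Y libraries held 1 read each. The log2 change against WT was -1.92 in VPRP sgHBB (SE 0.33, edgeR adjusted p = 6.83e-06) and -2.75 in p300 (SE 0.369, adjusted p = 1.72e-07). In D1399Y the 2 reads against 130 in WT gave a ratio of 0.0147 after scaling, with an exact 95% binomial interval of 0.00176 to 0.0542 (adjusted p = 5.38e-10); such intervals cover counting error only. The VPRP sgHBB libraries differed from each other 2.73-fold, and without replicate 2 the change against WT was -2.86. In VPR the change of 0.46 was not called.

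ZNF93, the repressor of L1 elements, was nearly without reads in p300 and D1399Y. It stood at 0.13 and 0.331 CPM in VPRP sgHBB, 3.16 and 3.44 in VPRP non-target, 0.76 and 1.78 in VPR, 0.0612 and 0 in p300, and 0.0578 and 0 in D1399Y, against 1.28 and 0.97 in WT. Every library of VPRP sgHBB, p300 and D1399Y lay below both WT libraries. One read in p300 against 34 in WT gave a ratio of 0.0268 (95% interval 0.000659 to 0.16, edgeR adjusted p = 6.91e-05), and 1 read in D1399Y gave 0.0281 (0.000691 to 0.167, adjusted p = 0.000175). In VPRP sgHBB the log2 change was -2.20 (SE 0.657, adjusted p = 0.00445). Leaving out VPRP sgHBB replicate 1 ended that call (0.0552), and leaving out replicate 2 gave -3.04.

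ZNF737 was low in the same 3 groups. It had 0.13 and 0.221 CPM in VPRP sgHBB, 3.95 and 4.32 in VPRP non-target, 2.34 and 2.46 in VPR, 0.0612 and 0.177 in p300, and 0.0578 and 0.0692 in D1399Y, against 1.08 and 2.01 in WT. Its groups did not overlap with WT in any of the 5 comparisons. The log2 change against WT was -3.06 in VPRP sgHBB (SE 0.595, edgeR adjusted p = 4.25e-05) and -3.60 in p300 (SE 0.643, adjusted p = 2.03e-05; -4.49 without p300 replicate 2). In D1399Y 2 reads stood against 47 in WT, a ratio of 0.0406 (95% interval 0.00478 to 0.155, adjusted p = 1.33e-05).

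ZNF506 had 0.652 and 0.608 CPM in VPRP sgHBB, 3.1 and 2.55 in VPRP non-target, 2.15 and 2.94 in VPR, 0.673 and 0.236 in p300, and 0.636 and 0.553 in D1399Y, against 1.81 and 1.81 in WT. Its log2 change against WT was -1.52 in VPRP sgHBB (SE 0.462, edgeR adjusted p = 0.00526), -1.99 in p300 (SE 0.49, adjusted p = 0.00109; -2.90 without p300 replicate 1) and -1.59 in D1399Y (SE 0.471, adjusted p = 0.00923). Without D1399Y replicate 2 that last call was lost at an adjusted p of 0.0605.

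ZNF91, the repressor of SVA elements, was just outside the rule for genes described library by library and was added after its values were seen. It stood at 2.28 and 2.65 CPM in VPRP sgHBB, 11.2 and 13.2 in VPRP non-target, 6.08 and 10.8 in VPR, 1.71 and 1.94 in p300, and 1.73 and 1.73 in D1399Y, against 6.99 and 6.6 in WT. It was low in the same 3 groups as ZNF681, ZNF93 and ZNF737, and high in VPRP non-target. The log2 change was -1.45 in VPRP sgHBB (SE 0.25, edgeR adjusted p = 7.01e-06), -1.89 in p300 (SE 0.264, adjusted p = 3.76e-07) and -1.97 in D1399Y (SE 0.269, adjusted p = 5.99e-07). These 3 calls held in every alternative run.

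**Figure D2:**
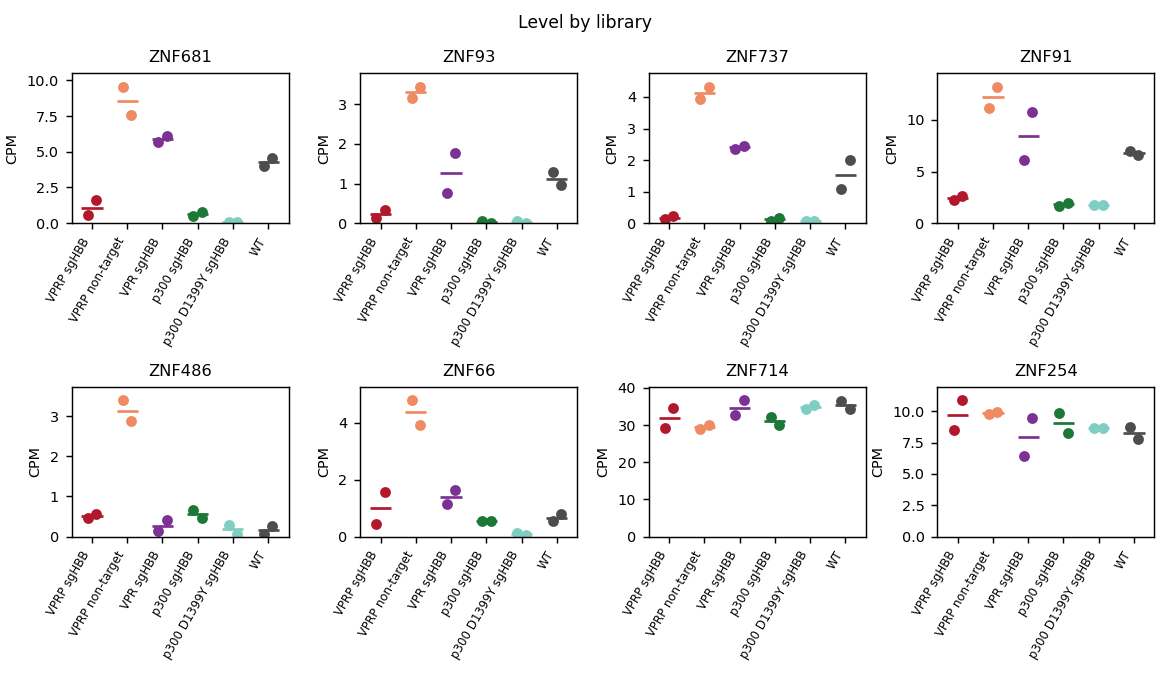
CPM of 8 cluster genes by group (linear axes that start at 0; each dot is 1 library, the bar is the mean of 2). ZNF681, ZNF93, ZNF737 and ZNF91 are low in VPRP sgHBB, p300 and D1399Y; ZNF486 and ZNF66 are highest in VPRP non-target; ZNF714 lies between 28.9 and 36.7 CPM and ZNF254 between 6.46 and 10.9 in all 12 libraries.

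The other genes of the 10 are given by their range. ZNF85 ranged from -1.28 to -1.12 on the log2 scale over the 3 groups, ZNF738 from -0.85 to -0.78, and ZNF100 from -0.55 to -0.34. ZNF85 moved to -1.77 in VPRP sgHBB without replicate 2 of that group. ZNF100 had 15.9 and 16.8 CPM in VPRP sgHBB, 20.5 and 17.4 in VPRP non-target, 20.5 and 20.9 in VPR, 14.6 and 13.6 in p300, and 16.4 and 16 in D1399Y, against 19.3 and 22.1 in WT. Its falls were small, and those in VPRP sgHBB and D1399Y were lost without WT replicate 2 (edgeR adjusted p = 0.189 and 0.263). The VPRP sgHBB call was also lost without replicate 1 of that group (0.0983), and the D1399Y call without either D1399Y library (0.1 and 0.131). ZNF492 and ZNF726 changed by -1.84 to -1.45 and by -1.75 to -0.98. The ZNF492 falls were lost in all 3 groups without WT replicate 2 (adjusted p = 0.121 in VPRP sgHBB, 0.0588 in p300 and 0.152 in D1399Y), and those of ZNF726 in VPRP sgHBB without WT replicate 1 (0.127) and in p300 without p300 replicate 2 (0.0623). The ZNF492 falls were also lost without VPRP sgHBB replicate 2 (0.114) and D1399Y replicate 1 (0.222), and the values moved to -2.30 for ZNF492 without D1399Y replicate 2 and to -1.98 for ZNF726 without p300 replicate 1.

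Few cluster genes were called against WT in VPR, which had the same guide. Only ZNF429 rose against WT (log2 change 0.68, edgeR adjusted p = 0.0358; lost in DESeq2 at 0.0792), where 13.8% of all genes rose. None of the 28 fell, at an unadjusted p under 0.05 or in DESeq2 either (0 and 0), where 11.5% of all genes fell. DESeq2 called 0 rises, and 3 rises had an unadjusted p under 0.05. The ZNF429 call was lost without VPR replicate 2 (0.49), WT replicate 1 (0.0572) or WT replicate 2 (0.242), while 4 genes rose without VPR replicate 1; the VPR libraries differed most from each other. The direct comparison of VPRP sgHBB with VPR, which shares the guide, had 12 falls (25.1% of all genes fell) and 1 rise, of ZNF101 (24.7% rose). Of the falls, 8 were at least 2-fold (3.17% of all genes). Over the 22 genes there were 11 falls, 7 of them at least 2-fold. ZNF681 changed by -2.38 (SE 0.318, adjusted p = 1.48e-07), ZNF737 by -3.69 (SE 0.56, adjusted p = 1.38e-06) and ZNF91 by -1.76 (SE 0.244, adjusted p = 2.9e-07). DESeq2 called 9 falls. The rise of ZNF101 (0.42, adjusted p = 0.0087) was lost without VPR replicate 1 (0.308), and the fall of ZNF681 was -3.31 without VPRP sgHBB replicate 2.

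The 10 falling genes were the same in VPRP sgHBB and p300, 2 comparisons that share the WT libraries. Tested directly, VPRP sgHBB differed from p300 in 1 cluster gene, ZNF101 (log2 difference 0.35, edgeR adjusted p = 0.0426; 14.3% of all genes were higher), and that call was lost in DESeq2 (0.0773). The ZNF101 call was also lost with no low-count filter (edgeR adjusted p = 0.0606). It did not hold when either VPRP sgHBB library or p300 replicate 2 was left out. The difference was 0.34 without VPRP sgHBB replicate 1, 0.35 without replicate 2 and 0.24 without p300 replicate 2. In the other direction 0 genes were called (13.7% of all genes were lower), with 0 at an unadjusted p under 0.05 and 0 in DESeq2. A missed call does not show equal levels: the 95% interval is wide for genes with few reads.

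Between p300 and its catalytic mutant D1399Y, 4 genes were higher in p300: ZNF14, ZNF101, ZNF66 and ZNF681. They were 14.3% of the 28 and 18.2% of the 22, near the 15.4% over all genes. None was lower (15% of all genes), with 0 at an unadjusted p under 0.05 and 0 in DESeq2. ZNF681 had 21 reads in p300 against 2 in D1399Y, a ratio of 10.0 (95% interval 2.45 to 88.0, edgeR adjusted p = 0.00418). ZNF14 had 14.6 and 12.9 CPM in VPRP sgHBB, 17.7 and 20.2 in VPRP non-target, 11.8 and 12.7 in VPR, 15.7 and 15.1 in p300, and 6.88 and 8.78 in D1399Y, against 12.0 and 11.6 in WT. Both D1399Y libraries were below all 10 others, with a log2 difference of 0.98 between p300 and D1399Y (SE 0.15, adjusted p = 5.16e-06) and of -0.60 between D1399Y and WT (SE 0.156, adjusted p = 0.00336; lost without D1399Y replicate 1 at 0.111). The ZNF66 call between p300 and D1399Y was lost without any single library of the 2 groups (adjusted p = 0.0821 to 0.134), and that of ZNF101 (0.45, adjusted p = 0.0127) without p300 replicate 1 (0.161) or D1399Y replicate 1 (0.102); leaving out either of these 2 libraries left 2 calls. ZNF91 changed by 0.08 between p300 and D1399Y, with a 95% interval of -0.59 to 0.75.

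With VPRP and the non-target guide more of the cluster rose than fell against WT. Among the 22 genes whose testing did not depend on these libraries, 10 rose (45.5%, against 31.2% of all genes) and ZNF714 and ZNF708 fell (28.5% of all genes fell). Rises of at least 2-fold were found for 4 of the 22 (18.2%), where the share over all genes was 16.2%. The median log2 change was 0.48. The shares over all genes were not restricted to genes kept without VPRP non-target, so the sets are unlike. The 6 genes tested only through these libraries were all called higher, which the filter fixed, and bring the count to 16 of 28. For 11 of the 22 genes both VPRP non-target libraries lay above the other 10 libraries, as they did for 15.1% of all genes tested. The call for the rise of ZNF493 (0.76) was lost without WT replicate 2 or VPRP non-target replicate 2, at changes of 0.61 and 0.41. The falls of ZNF714 (-0.26, edgeR adjusted p = 0.0287) and ZNF708 (-0.50, adjusted p = 0.0224) were lost in DESeq2, which called 0 falls. Leaving out single WT or VPRP non-target libraries also ended them, ZNF714 without WT replicate 1 (0.16) or VPRP non-target replicate 1 (0.0945), and ZNF708 without WT replicate 2 (0.117) or either VPRP non-target library (0.0611 and 0.0652).

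ZNF486 stood at 0.457 and 0.552 CPM in VPRP sgHBB, 3.4 and 2.88 in VPRP non-target, 0.127 and 0.411 in VPR, 0.673 and 0.471 in p300, and 0.289 and 0.0692 in D1399Y, against 0.0672 and 0.259 in WT. The VPRP non-target libraries were the only ones above 1 CPM, and WT held 5 reads in all. ZNF66 was also highest in VPRP non-target, with 0.457 and 1.55 CPM in VPRP sgHBB, 4.8 and 3.93 in VPRP non-target, 1.14 and 1.64 in VPR, 0.551 and 0.53 in p300, and 0.116 and 0.0692 in D1399Y, against 0.538 and 0.776 in WT. It rose by 2.71 in VPRP non-target (SE 0.453, edgeR adjusted p = 4.13e-06). Its fall in D1399Y, a ratio of 0.143 (95% interval 0.0273 to 0.483, adjusted p = 0.0135), was lost without either D1399Y library (0.0562 and 0.0797) or without WT replicate 2 (0.0973).

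Next come genes with almost no reads outside VPRP non-target. ZNF43 had 0.391 and 0.166 CPM in VPRP sgHBB, 1.15 and 1.39 in VPRP non-target, 0.127 and 0.205 in VPR, 0.122 and 0.0589 in p300, and 0.0578 and 0.0692 in D1399Y, against 0 and 0.0647 in WT. VPRP non-target held 44 reads, against 1 in WT, a ratio of 38.7 that rests on 1 WT read. The filter made the VPRP non-target level a condition of testing, so the ratio is a value with no test. ZNF208 had 0.457 and 0.11 CPM in VPRP sgHBB, 1.03 and 0.776 in VPRP non-target, 0.0633 and 0.137 in VPR, 0.122 and 0 in p300, and 0 in all 4 libraries of D1399Y and WT. Set against a floor of 3 reads over the WT group, its 31 reads in VPRP non-target were at least 9.08-fold higher. Its 9 reads in VPRP sgHBB were at least 2.72-fold higher (edgeR adjusted p = 0.0196). That call did not hold when VPRP sgHBB replicate 1 (0.175) or either WT library (0.0799 and 0.0848) was left out.

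ZNF90 had 0 and 0.11 CPM in VPRP sgHBB, 0.79 and 1.16 in VPRP non-target, 0 and 0.0684 in VPR, 0.0612 and 0.0589 in p300, and 0.0578 and 0 in D1399Y, against 0 and 0.129 in WT. The 34 reads in VPRP non-target against 2 in WT gave a ratio of 14.9, again a value with no test. Both VPRP non-target libraries were again above the other 10. ZNF253 had 0.0652 and 0.0552 CPM in VPRP sgHBB, 1.64 and 1.16 in VPRP non-target, 0.443 and 0.479 in VPR, 0.0612 and 0.294 in p300, and 0 and 0 in D1399Y, against 0 and 0.323 in WT. VPRP non-target held 48 reads of it, against 5 in WT. The WT reads of ZNF43, ZNF90 and ZNF253 all came from WT replicate 2. ZNF682 had 0.196 and 0.221 CPM in VPRP sgHBB, 2.13 and 1.66 in VPRP non-target, 0.57 and 0.0684 in VPR, 0.306 and 0 in p300, and 0 and 0.138 in D1399Y, against 0.336 and 0.388 in WT. Both VPRP non-target libraries were the highest of the 12, at levels the filter made a condition of testing.

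The 8 untested genes had few reads in any group. Summed over them, there were 9 reads in VPRP sgHBB, 72 in VPRP non-target, 7 in VPR, 13 in p300 and 0 in D1399Y, against 0 in WT. ZNF676 had the most, with 21 reads in VPRP non-target, at least 6.15-fold above the floor for WT. These 8 genes, the 6 tested only through VPRP non-target and ZNF66 are the 15 cluster genes under 1 CPM in both WT libraries. The number of the 15 with a read was 11 in VPRP sgHBB, 15 in VPRP non-target, 11 in VPR, 10 in p300 and 5 in D1399Y, against 6 in WT. Their summed counts were 35 and 55 reads in the VPRP sgHBB libraries, 286 and 266 in VPRP non-target, 42 and 48 in VPR, 38 and 30 in p300, and 9 and 5 in D1399Y, against 14 and 30 in WT. The 15 were picked for low WT values, so these counts are a description and the distance from WT is not a result.

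Of the genes with more reads, 5 of the 10 that fell in VPRP sgHBB, p300 and D1399Y rose in VPRP non-target: ZNF93, ZNF737, ZNF85, ZNF91 and ZNF681. Over all genes tested 31.2% rose in VPRP non-target. That share was not counted among all genes that fell in the 3 groups. ZNF681 rose by 1.00 (SE 0.254, edgeR adjusted p = 0.00105), ZNF93 by 1.55 (SE 0.459, adjusted p = 0.00411), ZNF737 by 1.42 (SE 0.373, adjusted p = 0.00146) and ZNF91 by 0.85 (SE 0.205, adjusted p = 0.00057). ZNF85 rose by 0.70 (adjusted p = 0.0129), a call lost without WT replicate 1 (0.0718) or VPRP non-target replicate 1 (0.125). The other 5 were not called in VPRP non-target: ZNF506 (log2 change 0.63), ZNF492 (0.11), ZNF738 (0.09), ZNF100 (-0.13) and ZNF726 (-0.26).

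**Figure D3:**
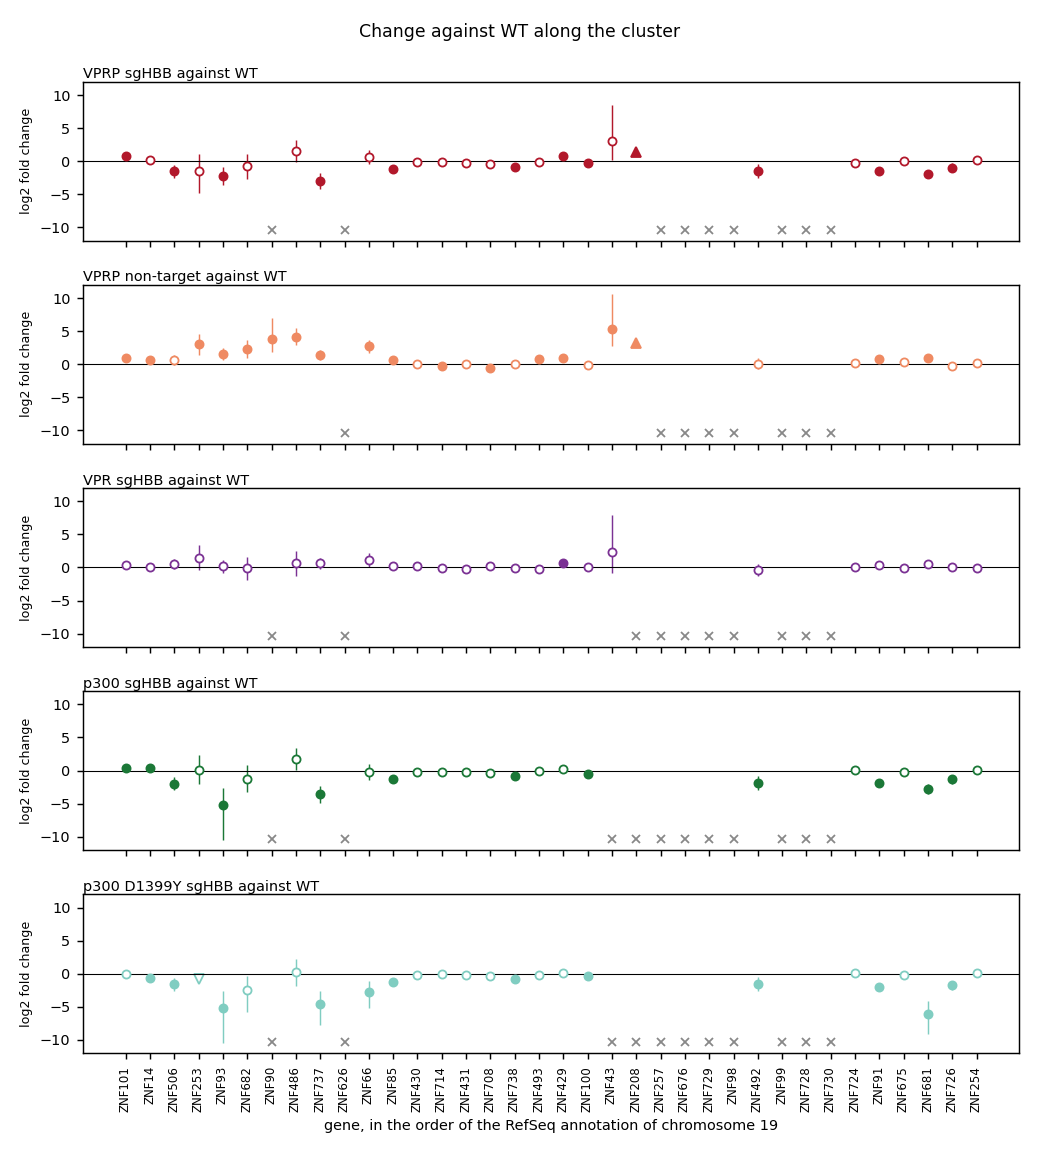
Log2 fold change against WT of each gene, in the order of the RefSeq annotation of chromosome 19, for the 5 fusion groups. Dots are fitted values, or read ratios where a group had 1 to 3 reads, with 95% intervals, triangles are bounds against a floor of 3 reads, filled symbols are called, and crosses at the bottom mark genes not tested or with 3 reads or fewer in both groups. The 6 genes that passed the filter only through VPRP non-target are filled there by that route. Genes that fall in VPRP sgHBB, p300 and D1399Y are interspersed with uncalled ones such as ZNF430 and ZNF675.

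The same fusion with different guides could be compared directly. Among the 22 genes, VPRP sgHBB was lower than VPRP non-target in 12 (14.4% of all genes were lower), in 8 of them at least 2-fold (3.76% of all genes). Of these calls, that of ZNF724 (-0.52) was lost in DESeq2 (adjusted p = 0.0582). Those of ZNF14, ZNF493, ZNF492 and ZNF724 were lost when single libraries were left out. The shares over all genes were not restricted to genes kept without VPRP non-target. The 6 genes tested only through VPRP non-target were bound by the filter to stand high there, so their calls are no result. With them the counts were 17 and 13 of 28. VPRP sgHBB was higher in 0 (14.9% of all genes were higher), with 0 at an unadjusted p under 0.05 and 0 in DESeq2. ZNF737 changed by -4.47 (SE 0.523, edgeR adjusted p = 3.73e-08), ZNF681 by -2.92 (SE 0.305, adjusted p = 3.89e-09; -3.85 without VPRP sgHBB replicate 2), ZNF93 by -3.75 (SE 0.577, adjusted p = 5.22e-06; -4.58 without that library) and ZNF91 by -2.30 (SE 0.233, adjusted p = 1.88e-09). The guide was not the only thing that differed: EP300, whose reads can include those of the fusion, averaged 375 CPM in VPRP sgHBB and 1170 CPM in VPRP non-target, a log2 difference of -1.64 (SE 0.0822, adjusted p = 2.74e-17). The part of this difference in the cluster's change was not tested.

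EP300 took other values across the groups. It averaged 375 CPM in VPRP sgHBB, 1170 in VPRP non-target, 98.7 in VPR, 1120 in p300 and 195 in D1399Y, against 107 in WT, so that the groups with low ZNF681 spanned 195 to 1120 CPM. The cancer-testis gene MAGEA10, a gene outside the cluster, was picked because it was already known to divide these groups. Its likeness to the cluster genes is therefore a description and no independent support. It averaged 0.213 CPM in VPRP sgHBB, 32.0 in VPRP non-target, 25.9 in VPR, 0 in p300 and 0.0692 in D1399Y, against 9.46 in WT. What this shared split contributes to the cluster's values was not tested.

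In the 5 comparisons with WT no call was made for 5 genes, ZNF430, ZNF431, ZNF724, ZNF675 and ZNF254. ZNF254 had 8.48 and 10.9 CPM in VPRP sgHBB, 9.78 and 9.92 in VPRP non-target, 6.46 and 9.51 in VPR, 9.91 and 8.24 in p300, and 8.67 and 8.71 in D1399Y, against 8.74 and 7.76 in WT. The 95% interval of its log2 change ran from -0.13 to 0.60 in VPRP sgHBB and from -0.30 to 0.45 in D1399Y. ZNF430 had 11.9 and 11.5 CPM in VPRP sgHBB, 14 and 13.5 in VPRP non-target, 12.7 and 17.4 in VPR, 10.5 and 11.5 in p300, and 11.5 and 9.89 in D1399Y, against 13.2 and 12.5 in WT. Its interval was -0.45 to 0.17 in VPRP sgHBB and -0.58 to 0.05 in D1399Y. ZNF675, known as an inhibitor of TRAF6 signalling, had intervals of -0.34 to 0.32 in VPRP sgHBB and -0.60 to 0.08 in D1399Y.

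ZNF714 and ZNF101 had the highest mean CPM, uncorrected for length. ZNF714 had 29.3 and 34.5 CPM in VPRP sgHBB, 28.9 and 30.1 in VPRP non-target, 32.7 and 36.7 in VPR, 32.1 and 30 in p300, and 34.3 and 35.5 in D1399Y, against 36.4 and 34.2 in WT. The only call against WT was the small fall in VPRP non-target given above. ZNF101 rose with VPRP under both guides, with 23.0 and 22.9 CPM in VPRP sgHBB, 28.5 and 28 in VPRP non-target, 14.2 and 20.2 in VPR, 19.3 and 16.7 in p300, and 12.8 and 13.6 in D1399Y, against 13.6 and 14.1 in WT. Its log2 change was 0.73 in VPRP sgHBB (SE 0.135, edgeR adjusted p = 2.11e-05) and 1.03 in VPRP non-target (SE 0.132, adjusted p = 3.63e-08).

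Along the chromosome, in the order of the RefSeq annotation on GRCh38.p14, falling genes were interspersed with genes that were not called. ZNF430, ZNF714, ZNF431 and ZNF708 are neighbours among the 36 and were called in none of VPRP sgHBB, p300 and D1399Y, with falling genes at either side of them (ZNF85 and ZNF738). A missing call is not an unchanged level. ZNF708 had log2 changes of -0.40, -0.38 and -0.40 in these groups, with every library below WT (edgeR adjusted p = 0.065, 0.0912 and 0.103). At the centromeric end ZNF91, ZNF681 and ZNF726 fell while ZNF675, which lies between ZNF91 and ZNF681, and ZNF724, next to ZNF91, were not called. Between ZNF43 and ZNF730 the genes had next to no reads in WT except ZNF492. Elsewhere ZNF253, ZNF682, ZNF90 and ZNF486 had only 5, 11, 2 and 5 reads in WT, so a fall there could hardly be called.

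Counts for zinc finger genes elsewhere are set beside those of the cluster. In VPRP sgHBB 3 of the 28 cluster genes rose and 10 fell against WT (2 and 10 of the 22), where 53 of 177 other tested ZNF genes of chromosome 19 rose and 31 fell. In p300 2 cluster genes rose and 10 fell, against 53 rises and 20 falls among the 177. In D1399Y 0 cluster genes rose and 12 fell, against 11 rises and 29 falls. Among 209 tested ZNF genes of other chromosomes 43.1% fell in VPRP sgHBB, 34.4% in p300 and 27.3% in D1399Y. The shares were 35.7%, 35.7% and 42.9% of the 28 cluster genes, and 45.5%, 45.5% and 54.5% of the 22. Frequent falls in VPRP sgHBB and p300 were thus not particular to the cluster. Falls of at least 2-fold made up 8.61%, 2.87% and 2.39% of the 209, against 25.0%, 28.6% and 32.1% of the 28. In VPRP non-target 10 of the 22 cluster genes rose (45.5%), against 88 of the 177 (49.7%), and 2 fell (9.09%), against 18 (10.2%). These shares are close, and the 177 were not restricted to genes kept without VPRP non-target. Between VPRP sgHBB and VPR 1 cluster gene was higher and 12 were lower (1 and 11 of the 22), where 70 of the 177 were higher and 15 lower. The median log2 change in that comparison was -0.38 over the cluster genes, 0.37 over the 177 and -0.08 over the 209. These counts are a description, and no test of the difference between the sets was made.

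**Figure D4:**
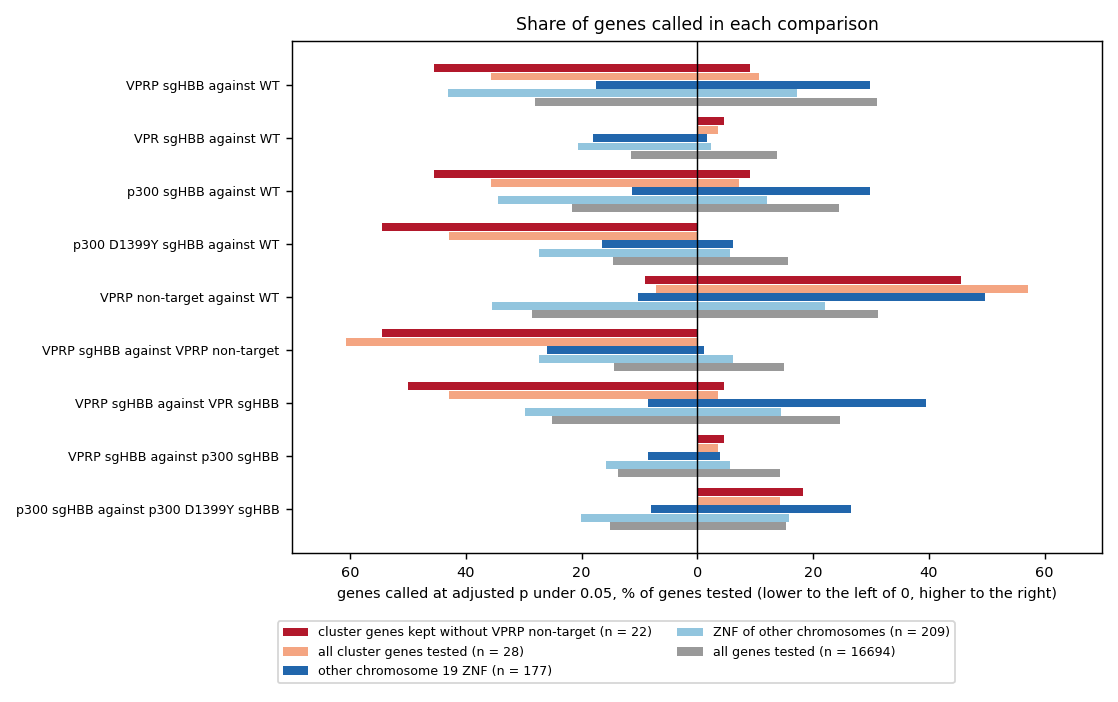
Share of genes called in each of the 9 comparisons (bars to the right, higher; to the left, lower; % of genes tested), for the 22 cluster genes kept without VPRP non-target, all 28 cluster genes tested, 177 other ZNF genes of chromosome 19, 209 ZNF genes of other chromosomes and all 16694 genes. Of the 22 cluster genes 54.5% are lower in D1399Y against WT, 54.5% lower in VPRP sgHBB against VPRP non-target, and 45.5% higher in VPRP non-target against WT, where other chromosome 19 ZNF genes reach 49.7%.

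A list of 24 co-repressors of KRAB zinc finger proteins and related genes, of which 23 matched, was read beside the cluster. It includes the zinc finger gene ZNF274. TRIM28, which the KRAB domain recruits, was not called against WT in any group, with averages of 885 CPM in VPRP sgHBB, 949 in VPRP non-target, 857 in VPR, 891 in p300 and 936 in D1399Y, against 952 in WT. SETDB1 had 40.2 and 29.3 CPM in VPRP sgHBB, 30.2 and 28.6 in VPRP non-target, 55.9 and 50.6 in VPR, 41.4 and 41.3 in p300, and 50.7 and 51.6 in D1399Y, against 60.2 and 66.5 in WT. It fell by 0.87 on the log2 scale in VPRP sgHBB (SE 0.103, edgeR adjusted p = 6.44e-09), by 1.11 in VPRP non-target (adjusted p = 4.14e-11), by 0.61 in p300 (adjusted p = 6.34e-06) and by 0.31 in D1399Y (adjusted p = 0.0176). It was not called in VPR (-0.25, adjusted p = 0.0628). Its part in the cluster's changes was not tested. Over the list, 5 genes rose and 13 fell in VPRP sgHBB, 5 rose and 14 fell in VPRP non-target, 4 rose and 4 fell in VPR, 4 rose and 7 fell in p300, and 3 rose and 4 fell in D1399Y. As shares of the 23, 21.7% rose and 56.5% fell in VPRP sgHBB, where 31.1% and 28% of all genes did. In VPRP non-target 21.7% rose and 60.9% fell, where 31.2% and 28.5% of all genes did. The shares were 17.4% and 17.4% in VPR (13.8% and 11.5% of all genes) and 17.4% and 30.4% in p300 (24.5% and 21.6% of all genes). In D1399Y 13.0% rose and 17.4% fell in D1399Y, near the 15.7% and 14.5% over all genes. ZNF274, a zinc finger protein known to bind the 3′ ends of other ZNF genes and to bring SETDB1 there, rose by 0.42 in VPRP sgHBB (SE 0.123, edgeR adjusted p = 0.00377), by 0.79 in VPRP non-target (adjusted p = 9.05e-07) and by 0.44 in p300 (adjusted p = 0.00349). It was not called in VPR (-0.35) or D1399Y (0.01).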

How the data were processed

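Raw read counts per gene were deposited by the authors in a single table. Per the submitters' processing notes, STAR 2.5, HTSeq 0.6.1 and DESeq2 1.24.0 were used and the build was hg19; the annotation and the strand setting were not given in the sources used here, so reads of antisense or overlapping genes cannot be separated. The 12 RNA libraries were fitted together in edgeR 4.0.16 (R 4.3.3), with a mean per group, TMM factors, filterByExpr by group (minimum count 10, total 15) and Benjamini-Hochberg adjustment over the 16694 genes kept; 9 comparisons were made. The fit was tested on simulated counts. The p-values measure the spread between libraries labelled as biological replicates. Replicates of a group differed beyond counting noise (chi-square per degree of freedom 2.86 to 13.6). The alternatives were RLE and upper-quartile factors, no filter, a filter of 1 CPM in 2 libraries, only the compared groups, DESeq2 1.42.0, a replicate block and each library left out. Counting only the 22 genes kept without VPRP non-target was added after seeing the data. The gene list, the co-repressor list and the tests were chosen with earlier results of these data known. Values per library are given for ZNF681, the 10 cluster genes with the largest called change of at least 2-fold against WT, the 4 with the highest mean CPM, and the 3 of at least 5 CPM with the smallest change. Promoter windows come from RefSeq on GRCh38.p14; no coordinates were converted. Figures were drawn with matplotlib 3.10.9. The 10 H3K27ac samples were not analysed here.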

Additional observations from a re-analysis of the deposited data

How the results depend on the processing

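For the 91 called changes of the 28 tested genes, 1720 values were recomputed: 1622 kept their direction and call, 98 kept the direction but lost the call, and 0 changed sign. A call was lost at least once for 34 of the 91. The number of cluster genes called was 0 in VPR against WT with DESeq2 (1 in the report). It was 0 in VPRP sgHBB against p300 with no low-count filter, with the replicate block and with DESeq2 (1 in the report). It was 2 in p300 against D1399Y with only those 2 groups fitted (4 in the report), where 17 of the genes were tested. With single libraries left out it ranged over 9 to 13 in VPRP sgHBB, 0 to 4 in VPR, 9 to 12 in p300, 8 to 13 in D1399Y and 15 to 18 in VPRP non-target against WT, 13 to 18 in VPRP sgHBB against VPRP non-target, 10 to 13 against VPR and 0 to 2 against p300, and 2 to 4 in p300 against D1399Y. The replicate numbers did not pair the samples: deviations of same-numbered libraries correlated at -0.196 to 0.157 between groups. The replicate block ended 1 call, ZNF101 in VPRP sgHBB against p300 (adjusted p = 0.0504). The cause of these changes was not tested. Genes with under about 10 reads a group are limited by depth.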
